A study of Homo sapiens with 6 samples.

Results

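Promoters that carried the strongest NuMA ChIP signal in MRC5 cells were examined, a set of 667 windows out of 19957 promoter windows in all, or 3.50% of the 19050 on autosomes. The set was chosen by the NuMA and IgG ChIP levels: a window belonged to it when it held a CPM (counts divided by the column total and multiplied by 1e+06) of at least 150 in both NuMA ChIP libraries, and when its mean NuMA level was at least 2 times its mean IgG level. These levels are therefore given below as a description with no test. Each window reaches 1000 bp to both sides of an annotated transcription start site on build hg38. MRC5 is an established human lung fibroblast line, labelled wild type and with no treatment given. There were 2 NuMA ChIP libraries (NuMA is written with the alias TDIF in the labels), 2 ChIP libraries made with non-specific IgG, and 1 input library for each of these arms. The labels do not say whether replicates came from separate cultures, so the spread between them may be technical. ChIP counts do not measure expression, so the identity of the line was not checked here.

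NuMA is a large coiled-coil protein that resides in the nucleus between divisions and gathers at the spindle poles in mitosis, where it links microtubules to dynein. In ChIP, chromatin fragments bound by an antibody are sequenced; IgG ChIP gives the fragments recovered without a specific antibody, and input gives the fragments present before recovery. The study asked where NuMA lies on the genome as part of a wider enquiry into its role in DNA repair and transcription. Many human promoters are rich in G, C and the dinucleotide CpG. Such CpG-rich promoters include those of housekeeping genes, and those of developmental regulators that stay silent in most differentiated cells.

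Promoter sequences of 5 of the strongest NuMA promoters and of 2 promoters outside the set are shown to make the difference in base content visible. The first 4 have the highest NuMA level among those with a matching entry and a gene start within 100 bp of the window's centre, MNX1 is the highest homeobox gene, and RPS7 and PSMD8 are the ribosomal protein and proteasome promoters with the most input. They were taken from RefSeq (GRCh38.p14), run 5′ to 3′ on the strand of the gene, and hold the 250 bases before its start, with each CpG in capitals.
CRHR1, the receptor for corticotropin-releasing hormone, has 29 CpG in chr17:45784070-45784319 (plus strand), with GC of 78.8%.
CRHR1: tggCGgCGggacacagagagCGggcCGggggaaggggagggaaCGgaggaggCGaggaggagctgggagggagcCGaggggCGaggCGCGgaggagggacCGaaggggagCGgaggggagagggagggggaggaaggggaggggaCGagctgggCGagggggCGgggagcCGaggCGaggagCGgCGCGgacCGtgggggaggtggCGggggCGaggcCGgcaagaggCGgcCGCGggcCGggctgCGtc
VIPR2, a receptor for vasoactive intestinal peptide, has 35 CpG in chr7:159144868-159145117 (minus strand), with GC of 80.4%.
VIPR2: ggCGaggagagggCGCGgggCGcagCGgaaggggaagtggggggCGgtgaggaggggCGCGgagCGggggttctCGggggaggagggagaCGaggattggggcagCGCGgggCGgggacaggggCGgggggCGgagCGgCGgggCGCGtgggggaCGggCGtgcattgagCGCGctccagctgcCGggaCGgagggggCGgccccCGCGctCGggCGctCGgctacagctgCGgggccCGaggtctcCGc
PRDM12, a regulator of sensory neuron development, has 19 CpG in chr9:130664344-130664593 (plus strand), with GC of 68.4%.
PRDM12: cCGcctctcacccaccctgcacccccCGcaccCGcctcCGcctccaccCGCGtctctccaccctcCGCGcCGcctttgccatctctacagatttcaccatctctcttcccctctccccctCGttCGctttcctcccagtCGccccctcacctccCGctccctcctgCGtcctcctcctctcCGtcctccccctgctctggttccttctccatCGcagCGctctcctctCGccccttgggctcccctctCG
PRKAG2, a regulatory subunit of the energy-sensing kinase AMPK, has 30 CpG in chr7:151877116-151877365 (minus strand), with GC of 75.6%.
PRKAG2: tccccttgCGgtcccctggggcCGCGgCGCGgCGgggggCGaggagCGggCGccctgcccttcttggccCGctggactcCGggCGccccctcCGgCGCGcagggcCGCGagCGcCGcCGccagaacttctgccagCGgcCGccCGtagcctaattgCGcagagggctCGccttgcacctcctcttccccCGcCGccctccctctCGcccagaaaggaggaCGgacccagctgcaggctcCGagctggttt
MNX1, a homeobox factor of motor neurons and pancreas, has 36 CpG in chr7:157010664-157010913 (minus strand), with GC of 78.8%.
MNX1: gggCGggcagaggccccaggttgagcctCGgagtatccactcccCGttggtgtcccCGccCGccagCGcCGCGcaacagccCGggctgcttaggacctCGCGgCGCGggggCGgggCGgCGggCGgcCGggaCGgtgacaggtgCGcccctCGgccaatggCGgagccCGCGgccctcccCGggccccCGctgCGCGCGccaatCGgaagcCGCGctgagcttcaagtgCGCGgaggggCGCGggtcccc
RPS7, which encodes a protein of the small ribosomal subunit, lies outside the set and has 19 CpG in chr2:3575010-3575259 (plus strand), with GC of 60.8%.
RPS7: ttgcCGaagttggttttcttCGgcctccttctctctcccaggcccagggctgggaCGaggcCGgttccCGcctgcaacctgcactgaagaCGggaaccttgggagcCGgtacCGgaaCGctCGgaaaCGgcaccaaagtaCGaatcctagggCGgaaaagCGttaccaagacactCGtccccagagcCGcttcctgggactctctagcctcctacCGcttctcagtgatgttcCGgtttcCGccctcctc
PSMD8, which encodes a proteasome subunit, also lies outside and has 10 CpG in chr19:38374321-38374570 (plus strand), with GC of 54%.
PSMD8: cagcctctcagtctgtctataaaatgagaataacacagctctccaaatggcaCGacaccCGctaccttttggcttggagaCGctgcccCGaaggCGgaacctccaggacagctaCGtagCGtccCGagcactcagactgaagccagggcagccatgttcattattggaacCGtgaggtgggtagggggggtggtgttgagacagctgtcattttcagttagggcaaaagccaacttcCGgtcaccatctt
CRHR1 held 666 and 434 CPM in the NuMA libraries, and RPS7 held 51.8 and 84.3 CPM. In the inputs the 2 promoters were close, at 141 and 173 CPM for CRHR1 and at 147 and 145 CPM for RPS7.

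The 667 promoters held 18.0% of all promoter counts in NuMA replicate 1 (95% Wilson interval 18.0 to 18.1%) and 13.8% in replicate 2 (13.7 to 13.8%). Their share was 7.0% and 5.06% with IgG, and among input counts it was 5.64% for the NuMA arm and 6.21% for the IgG arm. These intervals take each read as independent, so with reads copied by PCR they may be too narrow even for counting error. They do not cover the spread between replicates, whose shares of 18.0% and 13.8% differed beyond both intervals. Column totals were 1080879 and 664234 counts for NuMA ChIP, 616242 and 366594 for IgG ChIP, 729744 for the NuMA input and 791361 for the IgG input. The minimum of 150 CPM equals 162 counts in NuMA replicate 1 and 99.6 counts in replicate 2. The median promoter of the set rested on 271 and 129 counts in the NuMA libraries, but on only 62 and 27 counts in the IgG libraries.

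Among the strongest NuMA promoters, the NuMA level ran from 151 over a median of 251 to 759 CPM in replicate 1, and from 151 over 194 to 489 CPM in replicate 2. IgG levels ran from 35.7 over 101 to 271 CPM in replicate 1 and from 10.9 over 73.7 to 229 CPM in replicate 2. The NuMA input ran from 23.3 over 80.9 to 189 CPM, and the IgG input from 26.5 over 88.5 to 211 CPM. NuMA over IgG was at least 2 by the rule; its median was 2.59 and its highest value 6.69. NuMA replicate 1 exceeded replicate 2 at 590 of the 667 promoters (88.5%), with a median ratio of 1.30, whereas over all autosomal windows it was the higher one at 36.4%. It was also the higher one at 79.0% of the 333 windows that reached 150 CPM of NuMA but not 2 times the IgG level. Across the 667 promoters, which share libraries and depth, Spearman's rho was 0.692 between the 2 NuMA libraries and 0.527 between the 2 IgG libraries. It was 0.707 between mean NuMA and mean IgG levels, and 0.286 between mean NuMA and mean input levels. The rule bounds the mean IgG level by the mean NuMA level but leaves the input free. Nothing is therefore read from the 0.707 or from its distance to the 0.286.

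**Figure D1:**
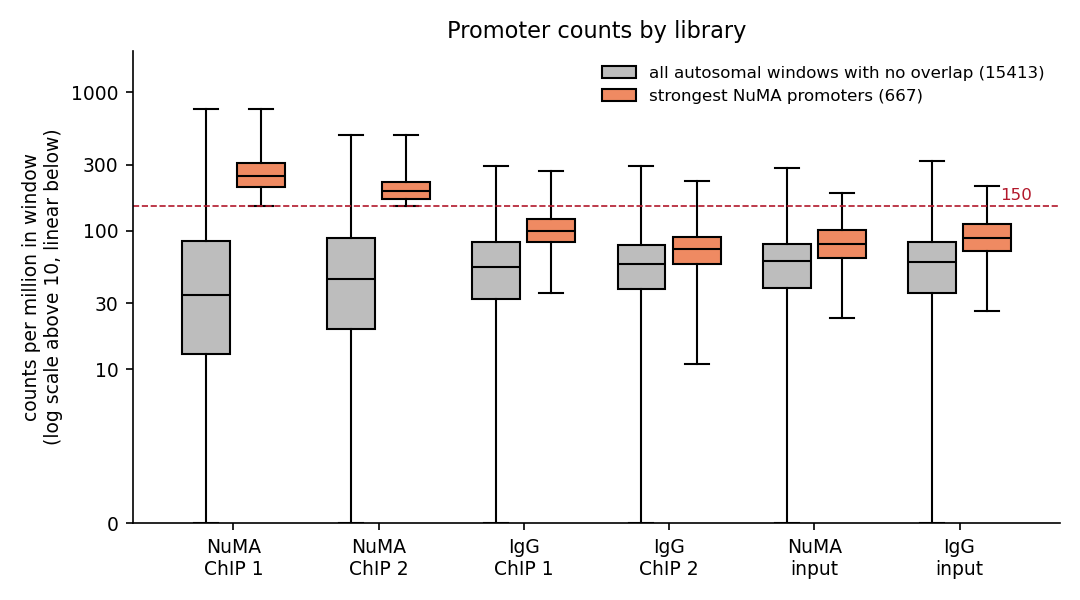
CPM in each of the 6 libraries (log scale above 10, linear below) for the 15413 autosomal windows with no overlap (grey) and the 667 strongest NuMA promoters (orange); boxes span the quartiles, the line is the median and whiskers reach the lowest and highest window. The orange boxes stand above 150 in NuMA ChIP by the rule, and near 74 to 101 at the median in the IgG and input libraries.

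SOX11, a transcription factor of neural progenitors, had the highest NuMA level, with 759 and 489 CPM in the NuMA libraries, 271 and 180 CPM in the IgG libraries, and 132 and 172 CPM in input (here and below, the NuMA arm first). Both NuMA values lay above all 4 other libraries. CRHR1 followed with a mean NuMA level of 550 ± 164 CPM (SD, n = 2) against a mean IgG level of 164 CPM. VIPR2 held 520 ± 176 CPM (SD, n = 2), with IgG at 165 and input at 110 CPM. The next in order were ALKAL2, a ligand of the receptor kinase ALK (490 CPM), PIEZO2, a mechanically gated ion channel (475 CPM), PRDM12 (450 CPM), ALKAL1, the second ALK ligand (447 CPM), the anticoagulant receptor THBD (442 CPM), FAM110C (441 CPM) and PRKAG2 (432 CPM). SDs between replicates were 83.4 to 197 CPM, but replicate 1 was the higher library at every promoter named here. These SDs thus hold a shift shared by the promoters and do not decide their order. SOX11 lay above CRHR1 (666 and 434 CPM), and CRHR1 above VIPR2 (645 and 396 CPM), in both NuMA libraries. From VIPR2 and ALKAL2 (582 and 397 CPM) onward, each pair of neighbours changed order between the libraries. The order was not tested.

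A high NuMA level over IgG marked other promoters. RAC3, a small GTPase of the RAC family, had the highest ratio, with 214 and 185 CPM in the NuMA libraries and 48.7 and 10.9 CPM in the IgG libraries; both inputs were near 80 CPM (80.9 and 79.6). The IgG values of RAC3 rest on 30 and 4 counts, and 4 is the lowest count of the set in IgG replicate 2. NuMA there was 2.49 times and IgG 0.371 times the mean input. NOTCH1, the receptor of the Notch pathway, was of the same kind: NuMA held 210 and 241 CPM, IgG 58.4 and 38.2 CPM, and the inputs 130 and 118 CPM. At both promoters the IgG libraries were below the inputs as well as below NuMA, so the ratio to IgG was larger than the ratio to input. CPVL, KIF26A, PTF1A, CELSR1, COCH, CEBPA, HYAL1 and JMJD8 completed the 10 highest, with ratios to IgG of 4.47 to 5.32. PTF1A and HYAL1 held only 8 and 9 counts in IgG replicate 2, so a high ratio can rest on few IgG counts. CEBPA encodes a factor of fat and myeloid cell differentiation, and held 368 and 271 CPM with NuMA, 74.6 and 65.5 CPM with IgG.

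The inputs took no part in the choice of the set. NuMA exceeded the mean of the inputs at all 667 promoters, by a median factor of 2.75, with the lowest at 1.08 and the highest at 6.51; over all autosomal windows the median factor was 0.697. It was at least 2 times the input at 546 promoters (81.9%), against 11.9% of all autosomal windows, and at least 3 times at 268. At 665 promoters both NuMA libraries lay above both inputs, against 22.2% of all autosomal windows. The 333 windows that reached 150 CPM of NuMA but not 2 times the IgG level went the same way. All 333 exceeded the mean input, by a median factor of 2.17, and 202 (60.7%) were at least 2 times it. Both NuMA libraries lay above both inputs at 322 of them (96.7%), so this is not particular to the set. The NuMA libraries that chose the set enter these counts and the calls that follow, so both describe the set and neither is a test of it. In edgeR's quasi-likelihood fit over 17226 windows (Benjamini-Hochberg adjusted p under 0.05), 568 of the 667 promoters were called higher in NuMA ChIP than in input, against 13.8% of all windows tested. In the fit of NuMA against IgG, 652 of 667 were called, against 19.3% of all windows; the rule used this contrast, so nothing is read from that count. That count fell with any 1 ChIP library left out, where a group held a single library. The set's median log2 NuMA over IgG was then 1.23 to 2.02, against 1.61.

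**Figure D2:**
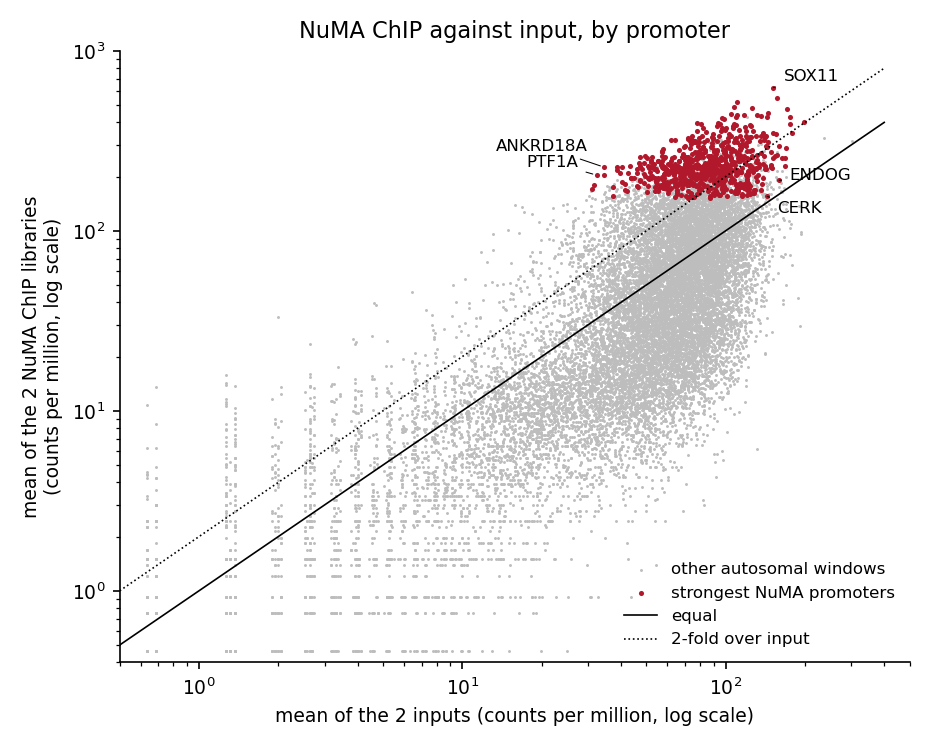
Mean NuMA ChIP level against mean input level (CPM, both axes on a log scale) for autosomal windows above 0 on both axes; red points are the 667 strongest NuMA promoters, grey points the other windows. The red points lie above the line of equality, and 546 lie on or above the dotted line of 2 times the input.

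NuMA over input was highest at ANKRD18A, an ankyrin-repeat gene, where the NuMA libraries held 266 and 185 CPM and the inputs 28.8 and 40.4 CPM, a ratio of 6.51. PTF1A, a bHLH factor of pancreas and cerebellum, came next at 6.28, with 193 and 214 CPM in NuMA ChIP, 61.7 and 21.8 CPM in IgG ChIP and 37.0 and 27.8 CPM in the inputs. The other 8 of the 10 highest were RGPD4, ASXL3, BMP2, GRIN3A, NPL, RRAGD, LDLRAD4 and HS3ST4, with ratios from 5.94 to 5.24. All 10 had a mean input of 31.1 to 47.3 CPM, under the median of 85.9 CPM for the set, so the high ratios rest on low inputs rather than on the highest NuMA levels. GRIN3A, a subunit of the NMDA glutamate receptor, is in the set with an IgG level of 112 and 92.7 CPM, which is 2.65 times its input.

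At the other end, CERK, a kinase of the lipid ceramide, held 151 and 160 CPM in NuMA ChIP, and its inputs held 122 and 166 CPM, so the 2 kinds of library overlapped. IgG there was 89.3 and 62.7 CPM, and NuMA over IgG was 2.04, just inside the rule. The mean IgG level of 76.0 CPM was 0.529 times the input. It still lay above the median of 55.7 CPM over autosomal windows with no overlap. ENDOG, a mitochondrial nuclease, was alike, with NuMA at 208 and 173 CPM, inputs at 145 and 174 CPM and IgG at 110 and 79.1 CPM. MAF1, a repressor of RNA polymerase III, the oxidase gene ENOX1 and the Hippo-pathway factor TEAD1 followed, at 1.27 to 1.30 times the input, each with IgG at 0.379 to 0.442 times the input. In all, 26 of the 667 promoters had NuMA below 1.5 times the input. Of the 63 promoters named for their level, ratio, replicate difference or list, 11 were not called higher than input in the edgeR fit, namely these 5, NOTCH1, TP53INP1 and 4 of the 5 with the highest inputs (APCDD1, PRRT1B, RASSF10 and SAMD14).

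**Figure D3:**
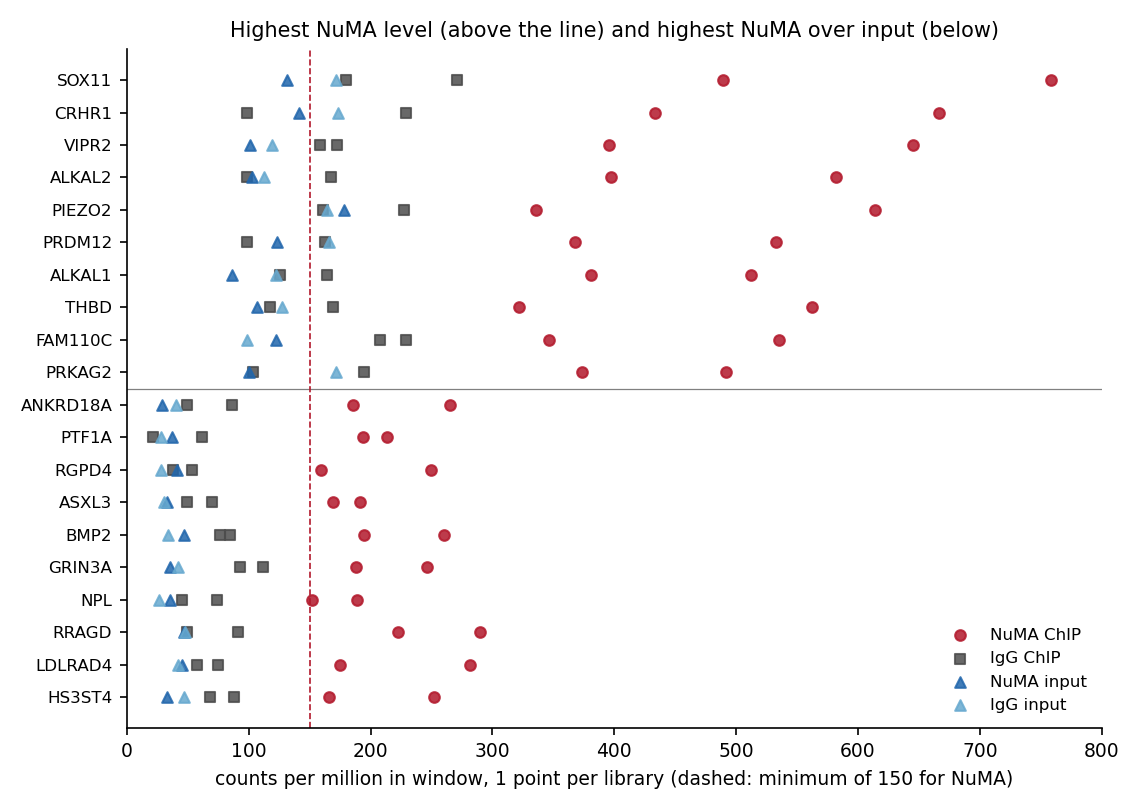
CPM in each library (1 point per library) for the 10 promoters with the highest mean NuMA level (above the grey line) and the 10 with the highest NuMA over input (below it); the dashed line is the minimum of 150 for NuMA. In the upper group the NuMA points lie between 322 and 759, and in the lower group between 152 and 290 with inputs under 50.

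The IgG level was bounded from above by the rule and is described here against the inputs. Its ratio to input had a median of 1.04 and ran from 0.371 to 2.65, against a median of 0.974 over all autosomal windows and 1.31 over the 333 windows that reached 150 CPM of NuMA but not 2 times the IgG level. Scaled on the metagene flanks, the median ratio was 0.646 in the set and 0.590 over all autosomal windows. IgG was at most 0.5 times the input at 18 promoters (2.70%, against 10.1% of all autosomal windows) and at least 2 times the input at 9 (1.35%, against 14.6%). All autosomal windows include many with low input. Over 4674 windows outside the set with no overlap and a mean input of 68.5 to 107 CPM, the shares were 11.3% and 0.342%. Mean inputs in the set ran from 31.1 to 198 CPM, a wider range than in these windows. The shares of the set and of these windows are therefore not like for like. The count of 18 was 80 without IgG replicate 1, 6 without IgG replicate 2 and 150 with the flank scaling. No promoter of the set was called in either direction between IgG ChIP and input by edgeR. Of all windows 0.163% were called lower and 0.221% higher, so 0 in the set is near those shares. At an unadjusted p under 0.05 edgeR had 17 higher and 16 lower in the set. That share was not counted over all windows, so nothing is read from it. DESeq2 called 0 of all 17226 windows after adjustment, so its 0 in the set says nothing about these promoters. In level, however, both IgG ChIP and input were above those of other windows. The mean IgG level had a median of 86.1 CPM in the set and 55.7 CPM over autosomal windows with no overlap, and the mean input 85.9 and 60.4 CPM. Windows with at least 150 CPM in both IgG libraries numbered 75, of which 12 belonged to the set (16.0% of the 75 and 1.80% of the 667). With at least 150 CPM in both inputs there were 40 windows, and 9 of them belonged to the set (22.5% and 1.35%).

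To see how the choice carried over to a library that took no part in it, windows were chosen in 1 replicate and read in the other. With the rule applied to NuMA and IgG replicate 1 alone, 970 windows were chosen; in replicate 2 their median NuMA level was 167 CPM, their median IgG level 70.9 CPM, and their median NuMA over IgG 2.44, against 0.828 over all autosomal windows. NuMA lay above IgG in replicate 2 at 960 of them (99.0%, against 42.4% of all), and 491 (50.6%) met the full rule there, against 4.10% of all. Chosen in replicate 2 instead, 781 windows had a median ratio of 2.33 in replicate 1, against 0.684 for all windows. NuMA lay above IgG at 766 of these (98.1%, against 37.8% of all), and the 491 shared windows were 62.9% of them, against 5.09% of all. With 1 library per arm on each side these shares have no test. The largest differences between the NuMA replicates within the set were at OTOP1, a proton channel, with 328 and 157 CPM, and at SALL1, a zinc-finger factor of kidney and limb development, with 415 and 203 CPM. The IgG libraries held 97.4 and 115 CPM at OTOP1, and 114 and 73.7 CPM at SALL1.

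The thresholds cut through a continuous range. RSAD2, PPP1R2B and TRIB1 were just inside the CPM minimum, each with 150.5 CPM in NuMA replicate 2. PTPRU and CHD7 were just outside, each with 149.9 CPM in replicate 1, as was FOXO6 with 149.0 CPM in replicate 2. ZNF667, CHAD and MTSS1 were just inside the fold minimum (2.0015, 2.0016 and 2.007), and PRDM14, FADS6 and C3orf80 just outside (1.999, 1.996 and 1.995). PRDM14, a germ cell regulator, held 467 and 387 CPM of NuMA and was left out by its IgG level. Of the set, 137 promoters lay within 10% of the CPM minimum and 135 within 10% of the fold minimum, with 186 and 120 windows as close on the outer side. A further 333 windows had at least 150 CPM in both NuMA libraries but less than 2 times the IgG level, and 202 of these were at least 2 times the input.

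Base content was not used by the rule. A RefSeq promoter sequence (300 bases, 250 before and 50 after the start) was matched to 366 of the 667 promoters (54.9%), so a check of GC content over the whole set is void, and the values that follow describe only the promoters with a sequence. Those with and without one had similar median NuMA levels, 221 and 227 CPM. In the 366, the median GC was 74.3%, against 63.3% in the 9453 autosomal windows with a sequence and no overlap. The median number of CpG was 35, against 23. GC was 70% or more in 262 of the 366 (71.6%, against 28.8%) and under 50% in 5 (1.37%, against 16.9%). One of these 5 belongs to SMAD7, an inhibitor of TGF-beta signalling, with GC of 48.3% and a NuMA level of 233 CPM. Windows outside the set whose input lay in the central range of the set (68.5 to 107 CPM) were in between, with a median GC of 66.7% and 26 CpG over 3020 windows.

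Across the 9453 windows with a sequence and no overlap, the share that belonged to the set rose with GC, from 0.312% (5 of 1602) under 50% GC to 15.9% (62 of 389) at 80% or more. The median NuMA level rose over the same bands from 12.3 to 108 CPM. The median IgG level was 44.9 CPM in the lowest band and between 54.3 and 58.7 CPM in the others. Input also rose, from 24.7 to 74.6 CPM, mostly between the 2 lowest bands, and its part in the trend was not tested. Spearman's rho with GC over these windows, which share libraries and depth, was 0.647 for NuMA, 0.097 for IgG and 0.455 for input. Inside the set, where the range of NuMA is cut by the rule, rho between GC and NuMA was 0.052 over 366 promoters.

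**Figure D4:**
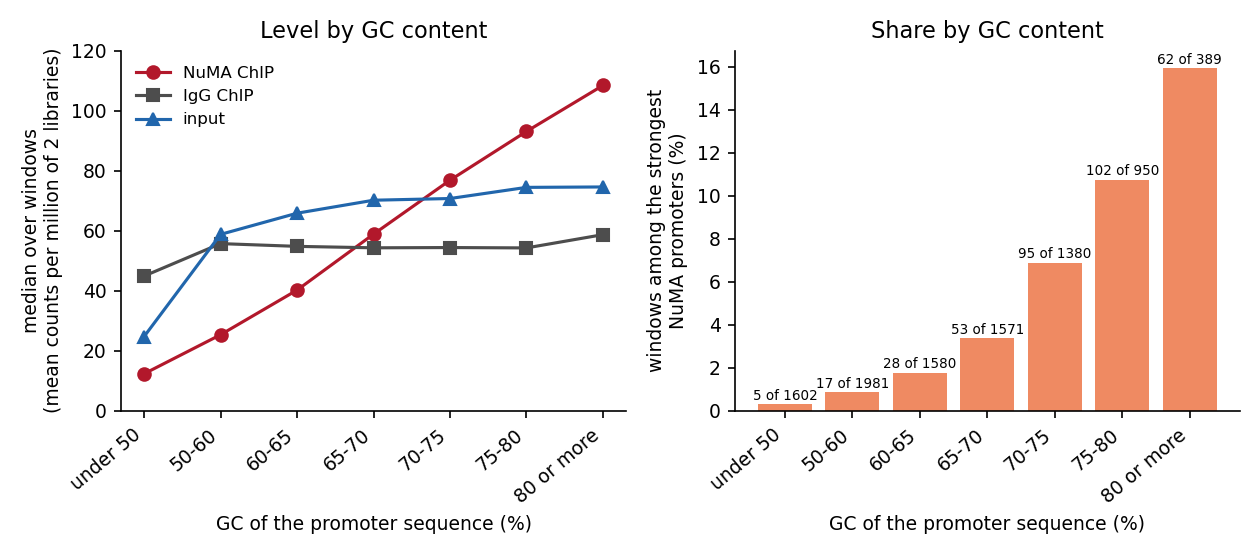
Left, median level over autosomal windows with no overlap (mean CPM of the 2 libraries of each kind) by GC of the promoter sequence; right, percentage of the windows in each band that belong to the strongest NuMA promoters, with counts above the bars. NuMA rises from 12.3 to 108 and the share from 0.312% to 15.9%, while IgG stays between 44.9 and 58.7.

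Short motifs were counted on both strands of the same 300 bases, as matches of letters only. The GC box GGGCGG, the motif of SP and KLF factors, was in 85.5% of the 366 promoters, against 60.6% of windows with no overlap. Among sequences with GC of 70% or more it was in 92% of the set and 94.6% of the others. The ETS motif CCGGAAG went the other way, in 4.92% of the set and 13.3% of windows with no overlap, and it stayed lower at GC of 70% or more (4.20% and 13.3%). CCAAT was in 24.9% and 36.2%, AAGATGGC (YY1) in 1.64% and 3.61%, GCGCATGCG (NRF1) in 1.37% and 2.57%, and TGACTCA (AP-1) in 1.64% and 3.53%. TATAAA was in 5.46% of the set and 10.3% of windows, but at GC of 70% or more the order turned, with 4.96% and 2.28%. TGACGTCA (CRE) was in 2.46% and 2.68%, and CACGTG (MYC and USF) in 8.20% and 8.72%. None of these motifs is contained in another.

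A gene name could be given to 588 of the 667 promoters (88.2%). Against the 3.71% of all named autosomal windows that belonged to the set, developmental transcription factors had larger shares. Of the SOX genes, 4 of 15 windows (26.7%) belonged to it: SOX11, SOX17, a factor of endoderm and blood vessels (mean NuMA 328 CPM), SOX7 (216 CPM) and SOX12 (161 CPM). SOX12 had 157 and 166 CPM of NuMA against inputs of 134.3 and 112.5 CPM, the lowest NuMA over input of the 4. Homeobox and PAX genes outside the HOX clusters had 18 of 107 windows (16.8%). MNX1 led them with 514 and 334 CPM in NuMA ChIP, 159 and 95.5 CPM in IgG ChIP and 103 and 91.0 CPM in the inputs. EN2, a midbrain patterning factor, held 449 and 294 CPM, and IRX1, an Iroquois factor, 345 and 304 CPM. At the lower end, EMX2 and EMX1, both of forebrain development, held mean NuMA levels of 167 and 165 CPM.

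The HOX genes, which set position along the body axis, had 4 of 29 windows (13.8%), namely HOXD9, HOXD1, HOXD8 and HOXC13. HOXD9 held 293 and 248 CPM of NuMA against 102 and 62.7 CPM of IgG. TBX and GATA factors had 3 of 16 (18.8%): TBX4, a factor of hindlimb and lung mesenchyme (367 and 292 CPM), GATA5 and TBX21. Forkhead genes had 2 of 44 (4.55%), FOXD3 and FOXB2, a share near that of all windows. Neurogenic and other bHLH factors, a list added after values were seen, had 8 of 37 (21.6%), with ASCL2 the highest (380 and 241 CPM) and NEUROG1, NEUROG3, OLIG1 and PTF1A among them. Zinc finger genes named ZNF, in contrast, had 5 of 433 (1.15%); the highest, ZNF667, held 254 and 193 CPM, just inside the fold minimum.

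BMP, TGF-beta and SMAD genes had 9 of 33 windows (27.3%), made up of 4 bone morphogenetic proteins (BMP2, BMP6, BMP7 and BMP8A), the related ligands GDF7, GDF10 and INHBB, the extracellular BMP antagonist NOG, and SMAD7. BMP6 was the highest, with 402 and 218 CPM in NuMA ChIP against 90.9 and 68.2 CPM in IgG ChIP and 65.8 and 92.2 CPM in the inputs. BMP2 held 260 and 194 CPM with inputs of 46.6 and 34.1 CPM, and had the highest NuMA over input of the list (5.63). NOG and SMAD7 had the lowest, at 1.57 and 1.68, with mean inputs of 141 and 139 CPM. WNT and frizzled genes had 5 of 29 windows (17.2%). These were the receptor FZD10 (292 and 224 CPM), the ligands WNT7A, WNT1 and WNT11, and SFRP2, a secreted antagonist. Notch pathway genes, another list added after values were seen, had 6 of 26 (23.1%): NOTCH1, its ligand JAG1, the targets HES5, HEYL and NRARP, and POFUT2. POFUT2 is counted by the list but is not an established member of the pathway. NRARP, which dampens Notch signalling, was the highest at 271 and 229 CPM, and JAG1 the lowest at 155.4 and 150.5 CPM.

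Of the receptors for neuropeptides, hormones and amines, a list added after values were seen, 16 of 86 windows (18.6%) belonged to the set, led by CRHR1 and VIPR2. The opioid receptor OPRK1 (372 CPM), the adrenergic receptor ADRA1D (345 CPM) and the serotonin receptor HTR6 (337 CPM) followed by mean NuMA level, and CHRNA3, an acetylcholine receptor subunit, was the lowest at 162 CPM. Potassium channels had 15 of 86 (17.4%). KCNA3, a voltage-gated channel, was the highest, with 479 and 269 CPM of NuMA, 135 and 112 CPM of IgG, and 101 and 61.9 CPM in the inputs. KCNK12 had the highest NuMA over input among the channels (4.94), and KCNQ1, a cardiac channel, the lowest NuMA level (207 and 166 CPM). Glutamate and GABA receptor genes had 5 of 36 (13.9%), with the kainate receptor subunit GRIK3 the highest at 415 and 260 CPM. GRINA, counted among the 5, is not an established subunit of these receptors. Receptor tyrosine kinases, also added later, had 8 of 51 (15.7%): FLT1, FLT3, FLT4, RET, KIT, EPHA7, NTRK3 and ALK. FLT1, a receptor for VEGF, held 385 and 253 CPM, and ALK 186 and 152 CPM. Solute carriers had 17 of 278 (6.12%), with the dopamine transporter SLC6A3 the highest at 512 and 276 CPM.

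The list of AP-1, EGR, NR4A and other response genes had 4 of 43 windows (9.30%), ID4, ARC, TRIB1 and HES5, which is also counted with the Notch genes. None of the 4 is an AP-1, EGR or NR4A gene. ID4, an inhibitor of bHLH factors, was the highest with 251 and 200 CPM. Kruppel-like and SP factors had SP5 and KLF3, 2 of 21 (9.52%), and the ubiquitin family 6 of 219 (2.74%), with TRIM67 the highest. A single promoter of each came from the dual-specificity phosphatases (DUSP2), the fibroblast and matrix genes (COL6A2), the p53 targets (TP53INP1) and the germ cell genes (BOLL), which had 19, 25, 17 and 14 windows. COL6A2, a chain of type VI collagen and the only fibroblast gene of that list in the set, held 193 and 190 CPM of NuMA, 107 and 57.3 CPM of IgG, and 89.1 and 84.7 CPM in the inputs.

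No window of 17 of the 35 first lists, with 994 windows in all, belonged to the set, against 3.71% of all named windows. In a list of 25 or fewer windows a count of 0 is near that share. Windows that overlap another seldom enter the set, and 4.60% of named windows with no overlap belonged to it. Only 50 clustered protocadherin, 48 cytosolic ribosomal, 44 oxidative phosphorylation and 43 heat shock and DNAJ windows had no overlap. Mitochondrial ribosomal proteins had 40 such windows, RAB GTPases 39, proteasome subunits 32 and histones 20. In all of these lists 0 is near that share too. Housekeeping genes made up many of the 17 lists: cytosolic ribosomal proteins had 0 of 69 windows, mitochondrial ribosomal proteins 0 of 74, proteasome subunits 0 of 46, nuclear genes of oxidative phosphorylation 0 of 95, and heat shock and DNAJ chaperones 0 of 65. The highest mean NuMA level among the cytosolic ribosomal proteins was 116 CPM, and their median was 24.6 CPM with a median input of 68.9 CPM. Genes of single-strand break and base excision repair (0 of 25), double-strand break repair (0 of 16), the mitotic spindle and NuMA partners (0 of 24), RNA polymerase II and pausing (0 of 25), and antioxidant defence (0 of 19) had none either, nor did the RAB GTPases (0 of 53). Gene clusters whose median input lay below the 62.7 CPM of all named windows were also without any: replication-dependent histones (0 of 69, 50.2 CPM), olfactory receptors (0 of 184, 18.6 CPM), keratins (0 of 140, 22.7 CPM) and clustered protocadherins (0 of 54, 33.1 CPM). Markers of liver (0 of 16) and blood (0 of 20) completed the 17.

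The lists also differed in base content and overlap, and the part of both in these shares was not tested. Of the 994 windows without a member, 735 had no overlap and only 57 of those with a sequence had GC of 70% or more. Among windows with GC of 70% or more and no overlap, 9.53% of all named windows belonged to the set (259 of 2719). At that GC the share was 8 of 21 (38.1%) for homeobox genes, 9 of 21 (42.9%) for the neuropeptide, hormone and amine receptors, 6 of 20 for receptor tyrosine kinases, 5 of 12 (41.7%) for Notch pathway genes and 4 of 11 (36.4%) for BMP, TGF-beta and SMAD genes. It was 2 of 19 (10.5%) for potassium channels, 2 of 11 (18.2%) for WNT and frizzled genes, and 6 of 55 (10.9%) for solute carriers. It was 0 of 12 for forkhead genes, 0 of 7 for Kruppel-like and SP factors, 0 of 3 for TBX and GATA genes and 1 of 7 for glutamate and GABA receptors. These counts are small and carry no test.

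**Figure D5:**
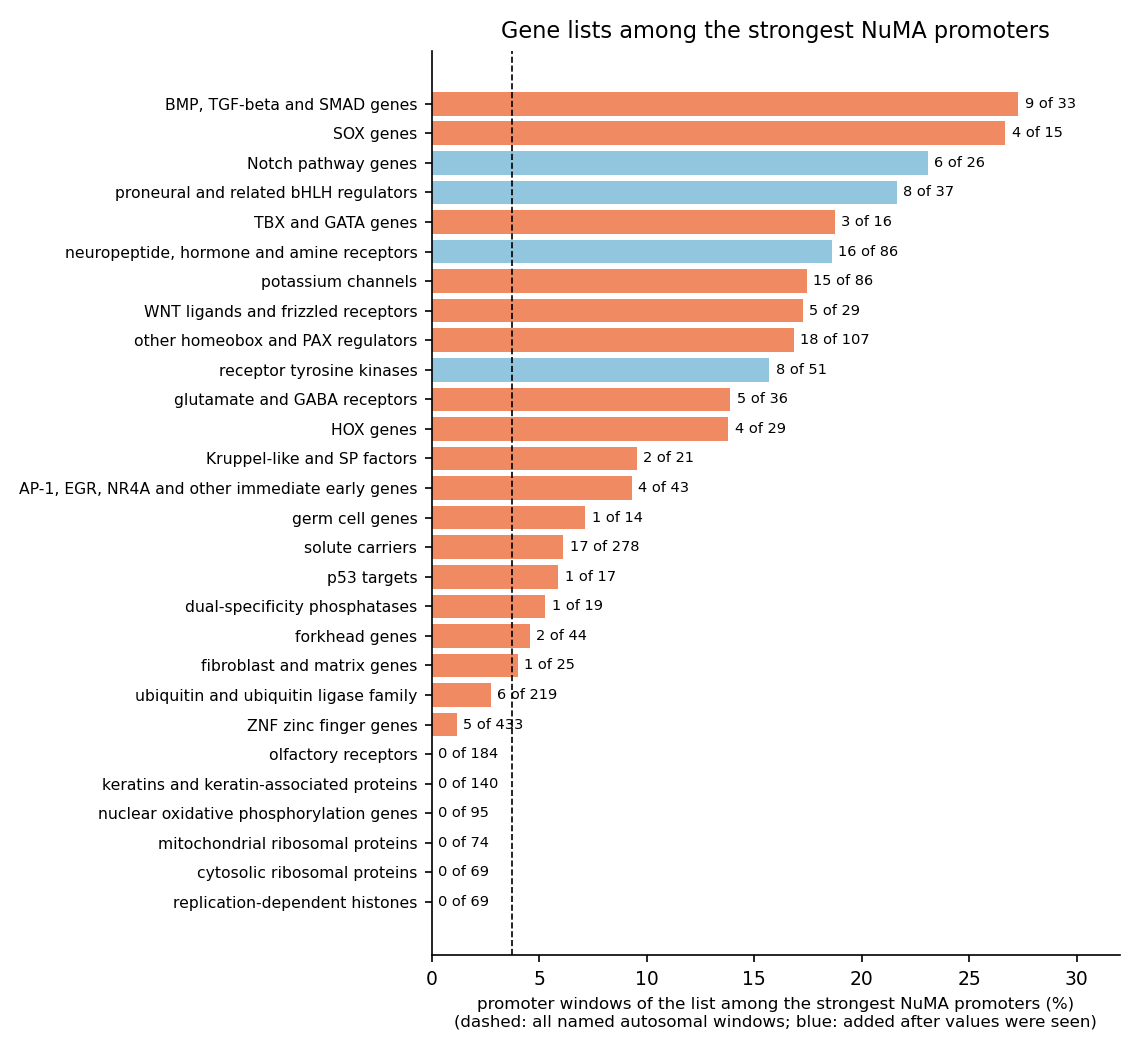
Percentage of the windows of each gene list that belong to the strongest NuMA promoters, with counts beside the bars; 6 of the 17 lists with none are drawn at the bottom, the dashed line is the 3.71% of all named autosomal windows, and blue bars are lists added after values were seen. The BMP, SOX, homeobox and neuropeptide receptor lists stand to the right of the line, and ribosomal protein, oxidative phosphorylation and histone genes at 0.

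The promoters of the set stood apart from neighbouring start sites. Only 5 (0.750%) overlapped another window, those of RSAD2, LRRC26, SLC18A3 and HSF4 and an unnamed one on chromosome 17, against 19.1% of autosomal windows. All libraries were low where windows overlapped: the median input was 60.4 CPM with no overlap, 38.1 CPM with 501 to 1000 bp of overlap and 1.37 CPM with over 1500 bp, where 0 of 2567 windows belonged to the set. How reads in shared bases were counted is not given in the sources used here, and promoters with inputs this low could hardly reach 150 CPM. The nearest other window was at a median of 55828 bp from the 667 promoters, against 24493 bp over all autosomal windows and 35583 bp over those with no overlap.

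Along the chromosomes, 173 of the 667 promoters (25.9%) lay within 5 Mb of the outermost annotated gene or first base of a chromosome, against 12% of windows with no overlap. Windows there were also richer in GC (median 69.3%, against 62.7% elsewhere) and higher in input (70.2 and 58.9 CPM). At GC of 70% or more, 15.9% of the windows near an end (82 of 515) and 8.03% elsewhere (177 of 2204) belonged to the set. Shares by chromosome were highest on chromosomes 20 (9.03% of windows with no overlap), 21 (8.78%) and 8 (8.35%) and lowest on 15 (1.91%) and 3 (2.18%), with 4.30% over all. Chromosome 20 also had the highest median input, 89.2 CPM, against 51.8 CPM on chromosome 15 and 51.9 CPM on chromosome 3, and its part in the order was not tested. Of the 565 bins of 5 Mb with windows, 35 held 5 or more of the promoters and together 248 of them. The fullest, at 135 to 140 Mb of chromosome 9, held 23 of its 93 windows (24.7%), among them NOTCH1, NRARP, OLFM1 and CACNA1B. Its median levels were 140 CPM with NuMA, 81.6 CPM with IgG and 112 CPM in input, and its median GC was 71.3%. At 65 to 70 Mb of chromosome 11 the neighbouring fibroblast growth factor genes FGF3, FGF4 and FGF19 were all in the set, among 12 of 140 windows.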

How the data were processed

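The authors deposited raw counts for 2001 bp promoter windows in 6 libraries, and metagene signal summed over genes that is not scaled for depth; the deposited signal served only for an alternative scaling by its outermost 500 positions. The build hg38 and the tools MACS2, featureCounts, bedtools and BWA 0.7.17-r1188 are listed, per the submitters' processing notes, without a role. How read pairs, duplicates and overlapping windows were counted is not given in the sources used here. Total counts of 366594 to 1080879 put 1 count at 0.925 to 2.73 CPM.

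Counts were scaled to CPM by column totals. Each window was named after the closest RefSeq protein-coding gene that starts on its strand within 1000 bp (16619 of 19957, 83.3%; median distance 35 bp; 2.58% after a shift of 20000 bp). Counts were tested over all windows with edgeR 4.0.16 (R 4.3.3; TMM, minimum count of 10 in filterByExpr, quasi-likelihood F-test, Benjamini-Hochberg threshold 0.05): NuMA against IgG on 4 ChIP libraries, each ChIP group against both inputs on all 6, taking each single input to have the spread of the ChIP groups. The fits were tested on simulated data.

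The promoters and the 35 gene lists were chosen with earlier results of these data known, and 4 more lists (Notch pathway, receptor tyrosine kinases, neuropeptide, hormone and amine receptors, bHLH factors) after their values were seen. Named promoters were the 10 highest by NuMA, by NuMA over IgG and by NuMA over input, the 5 lowest by NuMA over input, the 5 with the highest input, the 5 whose NuMA replicates differed most, the 3 nearest each side of each threshold and the highest of each list; other list members are examples chosen after their values were seen. Alternatives were other minima, TMM and flank scaling, thinned counts, single inputs, DESeq2 1.42.0, no count filter, each library left out and a replicate block. Flank scaling of the edgeR calls and the IgG input taken alone were added after the data were seen.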

Additional observations from a re-analysis of the deposited data

How the results depend on the processing

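The number of promoters that met the rule was 1292 at a minimum of 100 CPM, 283 at 200 CPM and 178 at a fold of 3, and ran from 507 to 1170 with each library left out (1170 without NuMA replicate 2, 507 without IgG replicate 2, against 667). It was 930 at a fold of 1.5, 938 with TMM, 1000 with scaling on the metagene flanks, 668 with sex chromosomes kept, 662 without overlapping windows, 674 after thinning to the smallest library (574 shared with the 667) and 748 with inputs in place of IgG (546 shared). Flank scaling raised log2 NuMA over IgG by 1.47 and over input by 0.74, and lowered IgG over input by 0.73 (TMM by 0.23 and 0.26 upward and by less than 0.1). Over all windows it turned 3039 higher and 3385 lower calls of NuMA against IgG into 7499 and 421.

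Of the 667 promoters, calls higher than IgG numbered 54 to 632 with 1 library left out, against 652: 54 without IgG replicate 2, 262 without NuMA replicate 1 and 273 without IgG replicate 1, each from 3 libraries, where the lone library is assumed to vary like the other group. DESeq2 gave 663 and no count filter 614. Calls higher than input were 484 to 647 with 1 NuMA library left out, 333 with flank scaling, 602 with DESeq2 and 555 with no filter, against 568. Promoters at 2 or more times the input were 485 to 666 over all settings, against 546. In the settings that gave 485 and 666, the shares of all autosomal windows were 11.3% and 27.0%, against 11.9%. Promoters with IgG at most 0.5 times the input were 150 with flank scaling, 80 without IgG replicate 1 and 6 without IgG replicate 2, against 18. The shares of all autosomal windows were then 36.9%, 16.4% and 14.9%, against 10.1%. The cause of these shifts was not tested.

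The replicate block gave 667 calls of NuMA over IgG, beside 3742 of all 15727 windows. Differences between replicates 1 and 2 correlated at r = 0.179 between NuMA and IgG over 15727 windows. With only 2 pairs, however, the numbers were not taken to pair the samples. Of the 63 named promoters, flank scaling ended the call against input at 14, although their log2 NuMA over input rose (SOX11 from 2.33 to 2.84, CRHR1 from 2.10 to 2.60, and the median of all 667 from 1.74 to 2.24), and leaving out NuMA replicate 1 at 4; no direction was reversed in any setting run. Alternatives for GC over the full window were not run, as no genome was used here. Depth limits the IgG values most, with a median of 27 counts in IgG replicate 2.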
